A study of Mus musculus with 20 samples.

Results

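The microRNAs (miRNAs) described here come from the imprinted region between Dlk1 and Dio3 on mouse chromosome 12. A mature miRNA was counted as a member where at least 1 of its array probes was mapped inside chr12:110690000-111520000 (build mm9). That window held 81 of the 1881 mature mouse miRNAs on the array, from 44 hairpins, with 40 5p arms and 41 3p arms. The array carried 34 more miRNAs that RefSeq places between Dlk1 and Dio3 but that the window rule did not take, 33 of them because the files list all of their probes as unmapped.

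The samples were total RNA from the ascending aorta, lesion included, of male double-knockout mice, hybridised one sample per array to Agilent mouse miRNA arrays in 1 colour (Cy3). Every animal, controls included, carried the same genotype, which the labels write as Apobtm2Sgy/Ldltm1Her, alleles of Apob and of the LDL receptor gene that together raise plasma cholesterol. The design had 2 arrays on chow at week 0, then 3 arrays for each diet, chow and high fat, at each of weeks 6, 18 and 30. The labels' age entry repeats the week, so the animals' own age at week 0 is not given. No group of animals without the knockouts was analysed here. Nothing but the labels says that arrays of a group came from separate animals, so the spread behind each p-value is that between arrays and may be technical in part. The aorta holds several cell types, and fewer cells of a type and less RNA per cell cannot be told apart in it.

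The region is expressed by parent of origin. Dlk1, Rtl1 and Dio3 are read from the paternal chromosome, while the maternal chromosome is read into long noncoding transcripts, Meg3, the antisense transcript of Rtl1, Rian and Mirg, from which the miRNAs are cut. The miRNAs are abundant in the embryo, the placenta and the brain and fall in most tissues after birth. In blood vessels the human counterparts of miR-329, miR-487b, miR-494 and miR-495 are known from work on new vessel growth and on plaque, where blocking miR-494 has been studied in mice. Each miRNA recognises its targets mainly through bases 2 to 8, the seed.

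Mature sequences of 78 of the 81 members were found in RefSeq (GRCm38.p6), 18 of them among the members tested. They are shown for the members that passed the threshold in a comparison, for those detected on every array, and for the main stretch of the cluster that is described with them. Capitals mark the seed, bases 2 to 8 counted from the 5′ end.
miR-539-5p: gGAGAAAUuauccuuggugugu
miR-485-3p: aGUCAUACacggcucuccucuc
miR-1188-3p: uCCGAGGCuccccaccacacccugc
miR-494-3p: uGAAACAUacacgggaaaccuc
miR-370-3p: gCCUGCUGggguggaaccuggu
miR-3072-5p: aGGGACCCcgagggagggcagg
miR-127-3p: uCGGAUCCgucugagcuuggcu
miR-379-5p: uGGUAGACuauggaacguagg
miR-299b-5p: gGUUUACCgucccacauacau
miR-329-3p: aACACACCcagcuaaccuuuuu
miR-300-3p: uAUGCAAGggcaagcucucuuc
miR-154-5p: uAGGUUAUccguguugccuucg
miR-134-5p: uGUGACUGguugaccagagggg

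The members share little sequence. The 78 sequences held 73 different seeds, of which 5 occurred in a pair of members, and no seed was shared between tested members. The seed of miR-329-3p was also that of miR-362-3p, a miRNA from outside the cluster. The GC content of the mature sequence was 77.3% in miR-3072-5p, 72% in miR-1188-3p, 68.2% in miR-370-3p and 66.7% in miR-341-3p, against 40.9% in miR-539-5p and in miR-329-3p. The nearest mouse miRNA by edit distance lay 1 base away from miR-299b-5p (miR-299a-5p), 3 from miR-376a-3p (miR-376b-3p) and 3 from miR-300-3p (miR-381-3p). Array probes may not separate such close relatives, and the values of these 3 members are uncertain for that reason. The tested members without a matched sequence, miR-376c-3p and miR-487b-3p, were not compared in this way. Whether probes separate miR-376c-3p from its relatives in the cluster was therefore not checked.

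The measure throughout is the level of a miRNA on an array, its background-subtracted spot intensity scaled per array and taken as log2. The lowest level assigned, the floor, was 3.09. Detection on an array required a probe with a share of 0.5 or more of its usable spots well above background. Levels are compared between arrays for 1 miRNA at a time, since probes of different miRNAs bind differently.

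Most of the cluster was not seen in this tissue. Of the 81 members, 50 were detected on 0 arrays, 31 on at least 1, and 3 on all 20 arrays (miR-370-3p, miR-494-3p and miR-3072-5p). The members that could be tested, those seen on all arrays in 1 group or more, numbered 20, or 24.7% of the members against 32.4% of all miRNAs on the array. They were 11 3p arms and 9 5p arms from 20 hairpins, and from 0 hairpins were both arms tested. Because a member entered the test only through a group in which it was detected, the 20 do not stand for all 81.

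The 11 members that were detected but not tested were miR-381-3p, on 8 arrays, miR-667-3p, on 5, miR-410-3p, on 4, and miR-3070-3p, miR-1188-5p and miR-1247-3p, each on 3. miR-493-3p, miR-127-5p, miR-411-5p and miR-377-3p were each detected on 2 arrays and miR-376b-3p on 1. Among members known as main arms or from vessels, miR-495-3p, miR-541-5p and miR-1247-5p were detected on 0 arrays. Detected members per array ranged from 6, on the first chow week 18 array, to 27, on the second high fat week 30 array.

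Detection was uneven along the region. RefSeq places 16 members within the span of Rtl1 on either strand, 6 within Rian and 13 within Mirg, of which 3, 3 and 2 were tested. A further 43 matched members lie within none of these, mostly in the stretch between Rian and Mirg that starts at miR-379, and 10 of these were tested. The other 2 tested members, miR-376c-3p and miR-487b-3p, had no RefSeq match by name and lie in the same stretch by probe position.

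**Figure D1:**
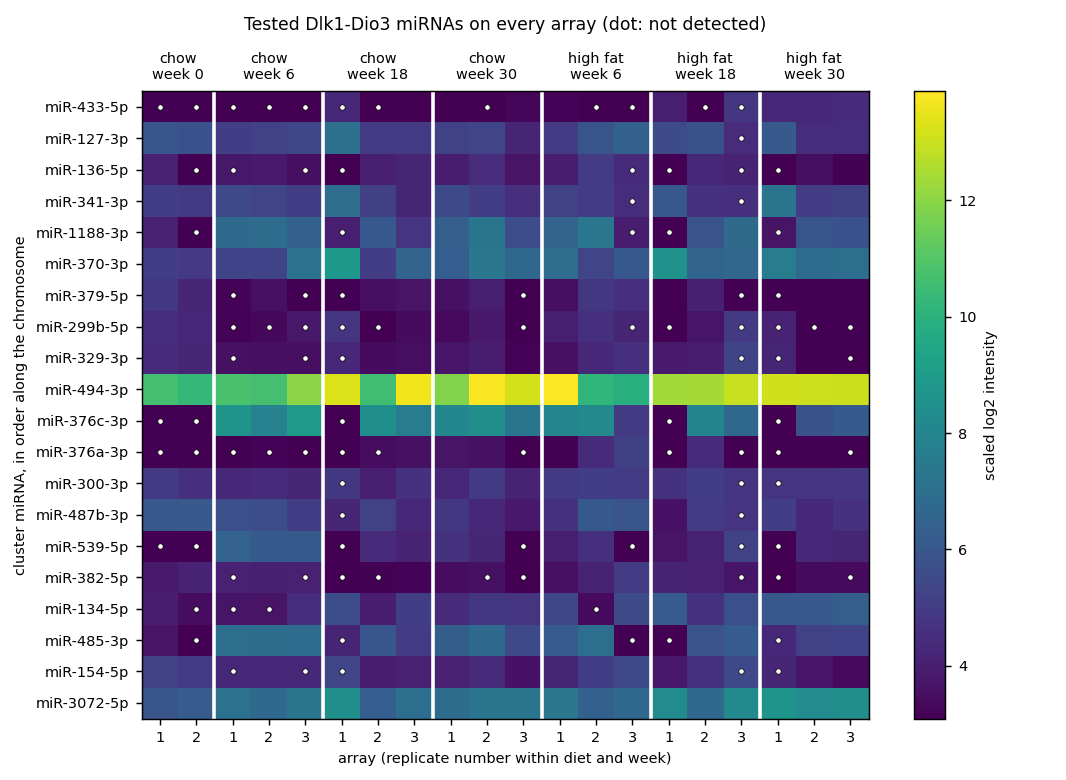
Colour shows the scaled log2 intensity of each of the 20 tested cluster miRNAs (rows, in order along the chromosome) on each of the 20 arrays (columns, by diet and week), and white dots mark arrays on which the miRNA was not detected. Rows are to be read along the arrays, not against each other. miR-376c-3p, miR-485-3p and miR-1188-3p are dark on the same 6 arrays.

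Several arrays stood apart whatever their group. The number of detected miRNAs was 316 to 355 on 4 arrays (the first of chow week 18, the third of high fat week 18, the third of high fat week 6 and the first of high fat week 30) and 412 to 742 on the others. On the first principal component, which carried 46.4% of the variance of the tested miRNAs, the first arrays of chow week 18, high fat week 18 and high fat week 30 lay at 30.9, 27.7 and 31.3, and the others between -26.4 and 16.4. The spread of the negative controls was 22.3 on the third high fat week 18 array and 2.10 to 2.53 on the rest. Some arrays were nearly alike: the standard deviation of the log2 difference was 0.18 between the second and the third high fat week 30 arrays, 0.28 between the first and second chow week 6 arrays, and 0.19 between the third high fat week 18 and the second high fat week 30 arrays, which belong to different groups. Its median was 0.95 over the 17 pairs of arrays of 1 group on 1 slide. The position on the slide given in the label differed from that in the file for 8 arrays, and for the first arrays of chow week 18 and high fat week 18 the labelled position would exchange the diets. Slide 1 held weeks 0 and 6, so that the step from week 6 to week 18 and the slide cannot be told apart. All 3 chow week 30 arrays were on slide 2 and all 3 high fat week 30 arrays on slide 3, scanned in another session, so the diet comparison at week 30 is also one between slides and scans. High fat week 18 was split, with the third array on slide 3 and the other two on slide 2.

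Between week 0 and week 6 on chow, 4 cluster miRNAs rose and 0 fell: miR-376c-3p, miR-539-5p, miR-485-3p and miR-1188-3p. They rose by 3.13 to 5.39 on the log2 scale. Of all 609 miRNAs tested, 20.2% rose and 0.164% fell in this comparison, so 4 of 20 members is a share near the background. The other members stayed on both sides of 0, with a median over the 20 of 0.09 against 0.58 over all miRNAs tested.

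miR-376c-3p, encoded in a group of near relatives in the middle of the cluster, has its probes at chr12:110960981-110961000 (mm9). It was at the floor and not detected on either week 0 array. Its chow levels were 8.69, 7.89 and 8.88 at week 6, 3.09, 8.48 and 7.61 at week 18, and 8.12, 8.41 and 7.29 at week 30. On high fat diet they were 7.98, 8.17 and 4.93 at week 6, 3.09, 7.98 and 6.71 at week 18, and 3.09, 5.75 and 6.14 at week 30. The chow week 6 arrays all lay above both week 0 arrays, while at week 18 each diet held 1 array at the floor and others near the week 6 level. From week 0 to week 6 on chow miR-376c-3p rose by 5.39 (SE 1.47, limma adjusted p = 0.0213). Against the lowest signal that counted as detected on the week 0 arrays, it was at least 25.7-fold higher at week 6. This bound sets the mean of the brighter group against the mean, per array, of the lowest signal among detected probes or the probe's own, whichever was higher.

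miR-539-5p, from a hairpin near the 3′ part of the stretch between Rian and Mirg, has its probes at chr12:110966349-110966367. It too was at 3.09 and not detected on both week 0 arrays. On chow it reached 6.47, 6.16 and 6.13 at week 6, then 3.09, 4.43 and 4.12 at week 18 and 4.68, 4.27 and 3.09 at week 30. On high fat diet it stood at 3.99, 4.57 and 3.09 at week 6, 3.66, 4.10 and 5.23 at week 18 and 3.09, 4.27 and 4.19 at week 30. The 3 chow week 6 arrays were its 3 highest of all 20. The rise from week 0 was 3.16 (SE 0.61, limma adjusted p = 0.00389), at least 5.46-fold by the same bound.

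The same miRNA was the member called in 2 more comparisons. Chow week 6 was the only group with miR-539-5p detected on every array, so it entered the test through the group where it is high. Each of its calls sets that group against another, so none is separate from the filter. From week 6 to week 18 on chow miR-539-5p fell by 2.37 (SE 0.54, limma adjusted p = 0.00672), and the groups did not overlap. At week 6 it was lower on high fat diet than on chow by 2.37 on the log2 scale (a high fat minus chow difference of -2.37, SE 0.54, limma adjusted p = 0.0176), again without overlap. Both comparisons share the chow week 6 arrays with the rise from week 0, and 2 of those arrays were nearly alike. With these averaged the adjusted p was 0.118 for the diet difference and 0.0428 for the fall. The diet call was also lost without the first chow week 6 array (adjusted p = 0.0986), the second chow week 6 array (0.0691), the first high fat week 6 array (0.0575) or the third high fat week 6 array (0.0998), and the range of adjusted p over all alternatives was 0.0117 to 0.997. The change of its diet effect between weeks did not pass the moderated F test (adjusted p = 0.223).

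miR-485-3p, from the 3′ part of the same stretch, was at 3.67 and 3.09 at week 0. On chow it stood at 6.99, 6.90 and 6.86 at week 6, 4.23, 5.98 and 5.0 at week 18 and 6.29, 6.77 and 5.46 at week 30. On high fat diet its levels were 6.25, 6.98 and 3.09 at week 6, 3.09, 5.85 and 6.25 at week 18 and 4.32, 5.18 and 5.24 at week 30. The chow week 6 arrays lay close together and clear of week 0, and the third high fat week 6 array lay at the floor. From week 0 to week 6 on chow miR-485-3p rose by 3.53 (SE 0.97, limma adjusted p = 0.0218).

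miR-1188-3p, from a hairpin within Rian, was at 4.07 and 3.09 at week 0. Chow gave 6.79, 6.88 and 6.45 at week 6, 3.98, 6.07 and 4.76 at week 18 and 6.35, 7.29 and 5.62 at week 30. High fat diet gave 6.52, 7.32 and 3.95 at week 6, 3.09, 5.86 and 6.81 at week 18 and 3.66, 5.90 and 5.83 at week 30. Its rise from week 0 to week 6 on chow was 3.13 (SE 1.06, limma adjusted p = 0.0434), and with no filter on detection the limma adjusted p was 0.0913.

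**Figure D2:**
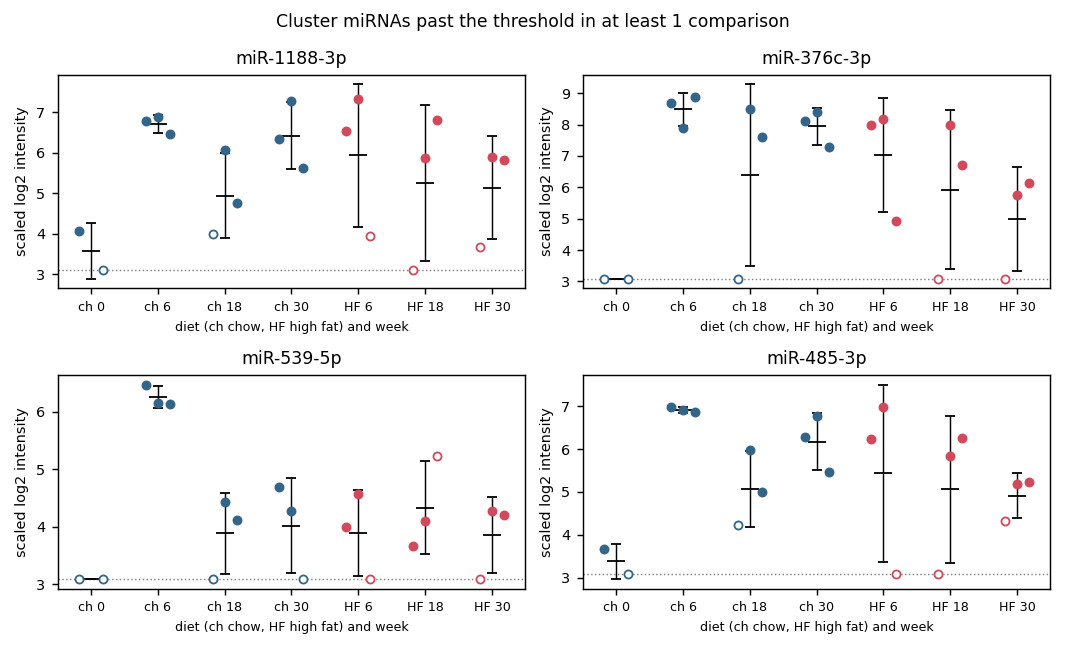
Each panel plots the scaled log2 intensity (vertical axis) of a cluster miRNA past the threshold in at least 1 comparison, by diet and week (horizontal axis), with 1 point per array, filled where detected and open where not, chow in blue and high fat in red. Black marks give the mean and SD of the group and the dotted line the floor of 3.09. All 4 miRNAs have their lowest group mean at week 0 and lie close together at chow week 6, and in several later groups 1 array lies well below the other two.

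These rises rest on 2 week 0 arrays. None of the 4 miRNAs was detected on every array at week 0, so each entered the test through later groups where it was higher. For miR-485-3p and miR-1188-3p these were chow week 6 and chow week 30 alone, and for miR-376c-3p these and high fat week 6. Their rises, like that of miR-539-5p, are thus not separate from the filter. Without the first week 0 array 0 of the 4 were called, and without the second 1, miR-539-5p. Leaving out 1 chow week 6 array left 1 called without the first, 2 without the second and 1 without the third. With the near-identical chow week 6 arrays averaged, 1 was called, and the direction of all 4 was the same in these fits. miR-376c-3p, miR-485-3p and miR-1188-3p had the same 6 lowest arrays of 20: both week 0 arrays, the third of high fat week 6 and the first of chow week 18, high fat week 18 and high fat week 30. miR-539-5p was at the floor on 6 arrays, 5 of them among these. Of the 6, 3 were among the 4 arrays with the fewest detected miRNAs. The part of array quality in these levels was not tested.

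Other miRNAs moved between the same groups. The summed level of 7 epithelial markers (the miR-200 family, miR-205-5p and miR-203-3p) was 7.11 to 7.31 at week 0, when 5 of the 7 were detected on neither array, and 9.24 to 10.91 at chow week 6. All 7 differences were positive, with a median of 2.90, and 1 passed the threshold. The sum of 4 leukocyte markers was 9.30 to 10.92 at week 0, 11.30 to 11.86 at chow week 6 and 8.58 to 9.65 at chow week 18, and 2 of the 4 fell in the later step. Of 4 neuronal markers, 3 were detected on no chow week 6 array and all 4 on no week 0 array, and their sum was 5.09 to 6.39 over all arrays. The smooth muscle miRNAs miR-143-3p and miR-145a-5p, with miR-145a-3p, summed to 10.08 to 11.36, and 2 of these 3 were detected on every array, so markers of the labelled tissue were present in every group. Among the striated muscle, endothelial, fibroblast, red blood cell and brown fat markers, of which 4, 2, 3, 2 and 4 were tested, 1 from striated muscle rose from week 0 to week 6 on chow and 0 fell. The part of the epithelial and leukocyte RNA in the members' changes was not tested.

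Under the other scalings the same step looked different, and this bears on the stretch that starts at miR-379. miR-379-5p, the first miRNA of that stretch, was at 4.83 and 4.23 at week 0 and at 3.21, 3.56 and 3.09 at chow week 6, a difference of -1.24 (SE 0.46, limma adjusted p = 0.0636). miR-329-3p was at 4.4 and 4.25, then 3.56, 3.53 and 3.53, and miR-487b-3p at 6.01 and 6.10, then 5.73, 5.66 and 5.10. In all 3 the groups did not overlap, and none of the differences passed the threshold. At chow week 6 miR-379-5p and miR-329-3p were detected on 1 of 3 arrays and miR-487b-3p on all 3. Of the members named next, miR-299b-5p was detected there on 0 of 3, miR-154-5p on 1, and miR-300-3p and miR-127-3p on all 3. Levels on arrays without detection are near background, so the size of those falls is uncertain. miR-299b-5p, miR-300-3p, miR-154-5p and, from within Rtl1, miR-127-3p were also lower on all 3 chow week 6 arrays than at week 0. Week 0 was the only group with miR-299b-5p detected on every array, so it entered the test through its higher group here. The lack of overlap of miR-299b-5p and its calls in this step under any setting are thus not separate from the filter. In all, 7 members did not overlap downward and 8 upward, where 12.3% and 50.6% of all tested miRNAs did so.

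With each array scaled on its percentile over all miRNAs, 2 members were called higher and 6 lower in this step, where 4.6% of all tested miRNAs were called higher and 9.85% lower. Quantile normalization gave 1 higher and 5 lower, where 2.3% and 2.46% of all were. Those called lower in both were miR-379-5p (differences of -2.39 and -2.05), miR-299b-5p, miR-329-3p, miR-300-3p and miR-154-5p, with miR-487b-3p in the first alone. The median difference of the 20 members was -1.16 and -0.92 in these settings, where that of all miRNAs was -0.51 and -0.16. With no scaling 0 members were called (0.164% of all higher and 0% lower), and with normexp background correction 1 (5.75% of all higher and 0% lower). The 4 rising members had a positive difference in all of these scalings. A change of scaling moves all miRNAs together, and relative to the median of all miRNAs 7 members lay above and 13 below in the scaling used here, with no scaling and with normexp, and 6 above and 14 below with the percentile over all miRNAs. Quantile normalization gave 7 above and 13 below, and 3 members changed side of that median with the percentile over all miRNAs, 2 with quantile normalization and 0 with the other two. Fitted on these 2 groups alone, 5 members were called higher and 5 lower, where 33.8% and 3.94% of all were.

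**Figure D3:**
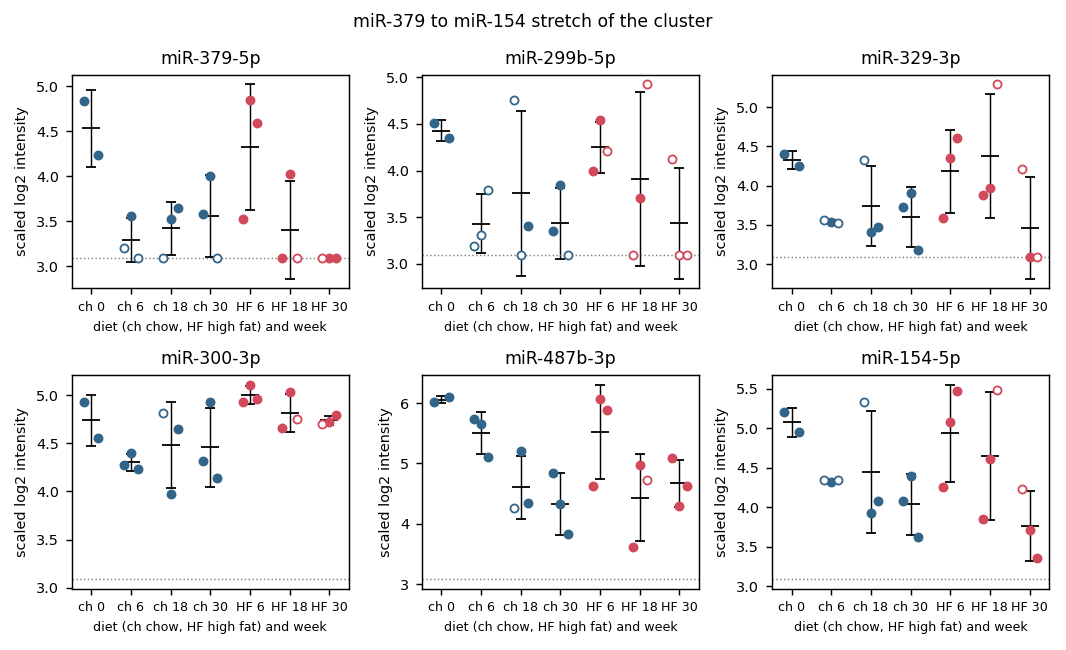
Scaled log2 intensity (vertical axis) of 6 miRNAs from the miR-379 to miR-154 stretch by diet and week (horizontal axis), 1 point per array, open where not detected, with the group mean and SD in black and the floor dotted. All 6 are lower at chow week 6 than at week 0 under the scaling used here. For 5 of them this difference passed the threshold with 2 other scalings. Of these, miR-299b-5p entered the test only through week 0, its higher group here.

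On high fat diet 0 members were called between week 0 and week 6 (0% of all miRNAs higher or lower), with 4 members at an unadjusted p under 0.05. The difference of miR-376c-3p was 3.94, that of miR-1188-3p 2.35 and that of miR-485-3p 2.06, all with the third high fat week 6 array well below the other two. Without the 4 arrays with the fewest detected miRNAs, that one included, these 3 were called, with rises of 4.98, 3.34 and 3.23 (limma adjusted p = 0.0221 for each). In that fit 16.1% of all tested miRNAs were called higher and 0.164% lower. In this step 4 members did not overlap upward and 0 downward, against 12.5% and 4.93% of all tested. The median over the members was 0.50, against 0.49 over all. The high fat and chow steps share the week 0 arrays.

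In the later steps 1 member was called. From week 6 to week 18 on chow the 1 member called was miR-539-5p, lower, where 0% of all tested miRNAs rose and 16.4% fell. The differences of miR-376c-3p, miR-485-3p and miR-1188-3p were -2.09, -1.84 and -1.77 and that of miR-494-3p was 1.35, none past the threshold. The members miR-1188-3p, miR-485-3p, miR-382-5p and miR-539-5p did not overlap downward and 0 did upward, against 33.3% and 1.97% of all. miR-382-5p, from the hairpin next to miR-134, was at 4.10, 4.03 and 4.07 at chow week 6 and at 3.09, 3.17 and 3.21 at chow week 18. It thus lay near the floor in the later group (difference -0.91, limma adjusted p = 0.0933). The members' median was 0.15 against -0.16 over all.

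From week 18 to week 30 on chow 0 members were called (0% of all) and 0 had an unadjusted p under 0.05. The differences of miR-376c-3p and miR-1188-3p were 1.55 and 1.49. Without overlap 3.12% of all miRNAs were higher and 0.164% lower, and 0 members. From week 6 to week 18 on high fat diet 0 were called (0% of all), 2 had an unadjusted p under 0.05, and 0 members did not overlap, where 0.164% of all were higher and 0.985% lower. From week 18 to week 30 on high fat diet 0 were called (0% of all) and 0 had an unadjusted p under 0.05. There miR-494-3p and miR-3072-5p did not overlap upward and miR-382-5p downward, against 3.28% and 4.43% of all. The members' medians in these 3 steps were -0.02, -0.27 and -0.20, against 0.07, -0.12 and -0.13 over all.

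**Figure D4:**
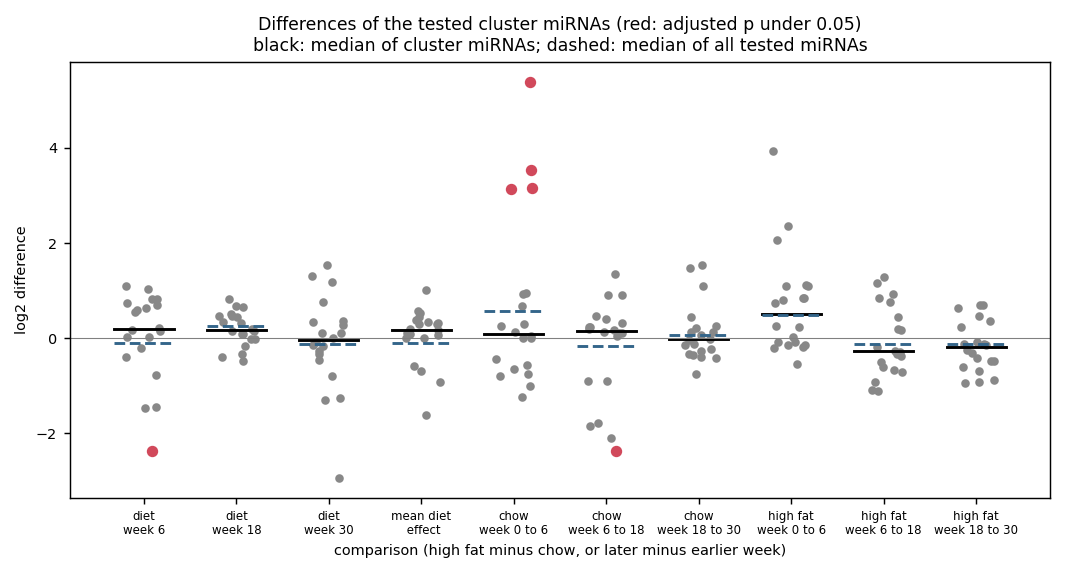
Log2 differences (vertical axis) of the 20 tested cluster miRNAs in 10 comparisons (horizontal axis), 1 point per miRNA, red where the limma adjusted p was under 0.05. Solid bars give the median of the members and dashed bars that of all 609 tested miRNAs. The 6 red points are the 4 rises from week 0 to week 6 on chow and the 2 lower values of miR-539-5p.

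The diet comparison asks whether the cluster differed between animals on high fat diet and on chow as the plaque developed. Apart from miR-539-5p at week 6, no member was called at any week. At week 6, 0% of all tested miRNAs were higher and 2.96% lower on high fat diet. At weeks 18 and 30 it was 0% each way, with 1 and 4 members at an unadjusted p under 0.05. In the mean over the 3 weeks it was 0% higher and 0.164% lower, with 0 members called and 5 at an unadjusted p under 0.05. The change of the diet effect between weeks was called in 0.985% of all miRNAs and in 0 members, while 1 member had an unadjusted p under 0.05. The members' medians were 0.19, 0.18 and -0.04 at weeks 6, 18 and 30, against -0.11, 0.26 and -0.13 over all.

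At week 6 the next smallest p-values were those of miR-376a-3p and miR-379-5p, named after their values were seen. High fat week 6 was the only group with miR-376a-3p detected on every array, so it entered the test through its higher group here. The difference of miR-376a-3p is thus not separate from the filter. miR-379-5p was at 3.52, 4.85 and 4.59 on high fat diet and at 3.21, 3.56 and 3.09 on chow, with overlap (difference 1.03, limma adjusted p = 0.248). miR-376a-3p was at 3.14, 4.42 and 5.14 on high fat diet and at 3.09, 3.20 and 3.09 on chow, where it was detected on 0 of 3 arrays (limma adjusted p = 0.280). The measured means were 4.23 and 3.13, and no fold is given, since the high fat mean lies under the lowest signal that counted as detected on the chow arrays, 4.27. In both, the first high fat array was level with chow and the other two were high. Without overlap 4 members were higher on high fat diet (miR-136-5p, miR-299b-5p, miR-329-3p and miR-300-3p) and 1 lower, against 2.46% and 13.5% of all miRNAs. None of the 4 passed the threshold. The differences of miR-136-5p, miR-329-3p and miR-300-3p were 0.73, 0.64 and 0.70, and miR-299b-5p was detected on 0 of the 3 chow arrays and has no fold for the same reason. The correlation between the 2 probes of miR-300-3p was 0.49 over the 20 arrays.

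At week 18 the groups of miR-382-5p did not overlap: high fat arrays were at 4.16, 4.08 and 3.70 and chow arrays at 3.09, 3.17 and 3.21 (difference 0.82, limma adjusted p = 0.954). It was the one such member, where 1.15% of all miRNAs were higher and 0.164% lower without overlap. On the third high fat array, at 3.70, miR-382-5p was not detected, and the negative controls there had a spread of 22.3. Exchanging the first array of each diet by labelled position would put 4.16 in chow and 3.09 in high fat, and the groups would then overlap.

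At week 30, 3 members were higher without overlap and 3 lower, where 28.6% and 25.5% of all miRNAs did not overlap. Each diet lay on a slide of its own here, and the values with the slide as a block, which rest on how the 1 high fat week 18 array on slide 3 differs from the other two on slide 2, are given below. miR-134-5p, a brain miRNA known for its role at synapses, was at 6.09, 6.12 and 6.34 on high fat diet and at 4.39, 4.83 and 4.73 on chow (difference 1.53, SE 0.57, limma adjusted p = 0.184). miR-3072-5p, the last tested member along the cluster, was at 8.67, 8.29 and 8.41 against 6.91, 7.26 and 7.26 (difference 1.32, SE 0.50, limma adjusted p = 0.186). miR-433-5p, from opposite Rtl1, was at 4.33, 4.30 and 4.37 against 3.09, 3.09 and 3.26 (difference 1.19, SE 0.41, limma adjusted p = 0.167). All 3 were tight within each diet, but 2 of the 3 chow values of miR-433-5p were at the floor. The 4 probes of miR-433-5p had a lowest correlation of 0.36 with each other. Fitted on the 2 week 30 groups alone, these 3 members were called (limma adjusted p = 0.0227 for each). In that fit 15.4% of all tested miRNAs were called higher and 4.93% lower, and 2 of the 3 high fat arrays were nearly alike. Of the 7 groups, high fat week 30 alone had miR-433-5p detected on every array. That miRNA thus entered the test only through its higher group here, so its lack of overlap and its call are not separate from the filter. With the slide as a block the differences of miR-134-5p, miR-3072-5p and miR-433-5p were 1.27 (SE 1.05), 0.63 (SE 0.90) and -0.07 (SE 0.66). That of miR-433-5p thus changed sign. On the high fat week 18 array on slide 3, miR-433-5p was at 4.80, its highest level on any array, but was not detected. The negative controls there had a spread of 22.3, against 2.10 to 2.53 on the rest. That array was also nearly like the second high fat week 30 array (SD of the log2 difference 0.19). The sign change rests on this array, so no conclusion about the diet is drawn from it.

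The 3 lower members at week 30 were miR-376c-3p, miR-485-3p and miR-136-5p. Of these, miR-136-5p entered the test only through chow week 30, its higher group here. miR-485-3p was detected on every array only at chow week 6 and chow week 30, and miR-376c-3p only at these and high fat week 6. None of the 3 entered through high fat week 30, so their lower levels there are not separate from the filter. miR-376c-3p was at 3.09, 5.75 and 6.14 on high fat diet and at 8.12, 8.41 and 7.29 on chow, a difference of -2.95 (SE 1.32, limma adjusted p = 0.258). miR-485-3p was at 4.32, 5.18 and 5.24 against 6.29, 6.77 and 5.46, a difference of -1.26 (limma adjusted p = 0.346). For both, the high fat array farthest from chow was the first, 1 of the arrays with fewest detected miRNAs. With the slide as a block the differences of miR-376c-3p, miR-485-3p and miR-136-5p were -4.12 (SE 2.44), -3.04 (SE 1.53) and -1.19 (SE 0.80). These too rest on the high fat week 18 array on slide 3, where miR-136-5p was not detected.

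The members detected on all 20 arrays did not pass the threshold in any comparison. miR-494-3p, whose human counterpart has been studied in plaque stability, was at 10.65 and 10.29 at week 0. On chow it was at 10.77, 10.71 and 11.98 at week 6, 13.31, 10.57 and 13.63 at week 18 and 11.84, 13.83 and 13.18 at week 30. On high fat diet it was at 13.87, 10.19 and 9.87 at week 6, 12.37, 12.42 and 12.99 at week 18 and 13.09, 13.05 and 13.01 at week 30. Within high fat week 6 the arrays ran from 9.87 to 13.87, a wider span than that between the lowest and the highest group mean (10.47 and 13.05). The diet differences were 0.16 (SE 0.90), 0.09 and 0.10 at weeks 6, 18 and 30.

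miR-370-3p, from within Rian and known for effects on lipid metabolism in liver, was at 5.09 and 4.89 at week 0. On chow it reached 5.28, 5.24 and 7.20 at week 6, 8.85, 5.05 and 6.54 at week 18 and 6.31, 7.32 and 6.72 at week 30. On high fat diet it was at 6.96, 5.32 and 6.06 at week 6, 8.64, 6.55 and 6.64 at week 18 and 7.62, 6.85 and 6.98 at week 30. Its 3 highest arrays were the first of chow week 18, high fat week 18 and high fat week 30, the 3 that stood apart on the first principal component, and miR-341-3p, its neighbour within Rian, had the same 3. Both sequences are rich in GC, as given above with the sequences. However, miR-1188-3p, which lies between them within Rian and has 72% GC, had these 3 arrays among its 6 lowest. The part of GC content or position in these levels was not tested. miR-3072-5p was at 5.95 and 6.22 at week 0, below every later array, and was highest on the first high fat week 30 array (8.67) and the first chow week 18 array (8.44). Its chow step to week 6 was 0.95 (SE 0.56, limma adjusted p = 0.321).

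**Figure D5:**
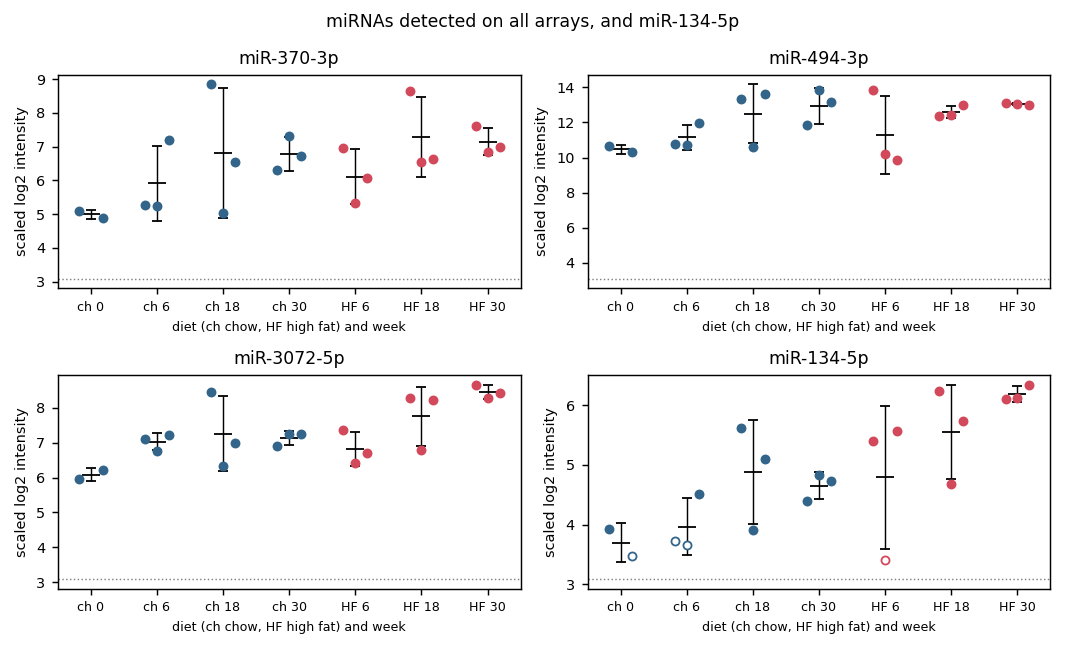
Scaled log2 intensity (vertical axis) of the 3 cluster miRNAs detected on all 20 arrays and of miR-134-5p by diet and week (horizontal axis), 1 point per array, open where not detected, with the group mean and SD in black. miR-494-3p spreads from 9.87 to 13.87 within high fat week 6. miR-3072-5p and miR-134-5p are higher on all 3 high fat arrays than on all 3 chow arrays at week 30.

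miR-127-3p, which lies opposite Rtl1 and acts on its transcript, was detected on 19 arrays. It was at 5.92 and 5.79 at week 0, at 5.09, 5.16 and 5.37 at chow week 6 and at 4.95, 5.91 and 6.44 at high fat week 6. At week 18 it was at 7.05, 4.95 and 5.0 on chow and 5.60, 5.75 and 4.45 on high fat diet, and at week 30 at 5.18, 5.34 and 4.22 on chow and 6.09, 4.49 and 4.49 on high fat diet. The diets overlapped at every week, with differences of 0.56, -0.40 and 0.11. miR-487b-3p, studied in arterial smooth muscle and vessel wall, was at 4.63, 6.06 and 5.88 at high fat week 6. At week 18 it was at 4.26, 5.21 and 4.35 on chow and 3.62, 4.97 and 4.72 on high fat diet, and at week 30 at 4.84, 4.32 and 3.83 on chow and 5.09, 4.30 and 4.62 on high fat diet. Its diet differences were 0.03, -0.17 and 0.34, none past the threshold.

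Of the 34 cluster miRNAs outside the window rule, 7 were detected on at least 1 array and 5 could be tested (miR-1906, miR-3070-2-3p, miR-432, miR-434-3p and miR-770-3p). Of these 5, 1 passed the threshold in any comparison. miR-3070-2-3p, which has the seed of the member miR-3070-3p, fell by 2.08 from week 6 to week 18 on chow (SE 0.53, limma adjusted p = 0.0118), from 7.41, 7.27 and 6.72 to 4.70, 5.61 and 4.86. In the same step 16.4% of all tested miRNAs fell. miR-434-3p, which like miR-127-3p lies opposite Rtl1, was at 5.0 and 4.73 at week 0 and at 4.11, 4.16 and 4.47 at chow week 6, and was not called in that step or any other. Of 10 miRNAs from other imprinted genes (H19, Igf2, Mest and Gnas), 3 were tested and 1 was called: miR-483-3p, from Igf2, rose by 2.63 from week 0 to week 6 on chow (limma adjusted p = 0.0220), from 3.93 and 3.78 to 6.58, 6.43 and 6.42. There 20.2% of all tested miRNAs rose.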

How the data were processed

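Processed spot intensities, linear and not scaled between arrays, were deposited by the authors. Per the file headers and the submitters' processing notes they were made with Agilent Feature Extraction 11.5.1, with background subtraction and spatial detrending. Probe positions are those of build mm9 in the files. The cluster members and marker lists were chosen with earlier results of these data known.

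Control spots and outlier spots (1370 to 2199 per array) were dropped, the remaining spots of a probe were averaged, and then the probes of a miRNA. For scaling, the 75th percentile was taken in each array over 192 miRNAs that were detected on 20 of 20 arrays. A floor of 3.09 (log2), the median over arrays of the 1st percentile of detected signals, was set before log2 was taken. The test covered 609 miRNAs, those detected throughout 1 group or more. It was limma 3.58.1 (lmFit and eBayes, R 4.3.3), fitted over 7 groups on all 20 arrays, which left 13 residual degrees of freedom, with 2-sided p-values adjusted by Benjamini-Hochberg over all 609 and a threshold of 0.05. The script was tested on simulated data. Named with values were members past the threshold, those detected on every array and a panel of main arms and vessel miRNAs. The others were named after their values were seen. Alternatives were other scalings, background correction, floors, filters, blocks, subsets of arrays and leaving out each array. The number of arrays limits the precision.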

Additional observations from a re-analysis of the deposited data

Results flagged for a closer look

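miR-136-5p, an antisense Rtl1 miRNA, did not overlap between the diets at 2 weeks, in opposite directions. It was higher on all 3 high fat arrays than on all 3 chow arrays at week 6, by 0.73, with 3.97, 4.96 and 4.43 against 3.78, 3.85 and 3.52. At week 30 it was lower on all 3 high fat arrays, a difference of -0.79, with 3.09, 3.48 and 3.16 against 3.97, 4.45 and 3.68. Of all tested miRNAs, 2.46% were higher without overlap at week 6 and 25.5% lower at week 30. The moderated F test of the change of its diet effect over weeks 6, 18 and 30 gave an adjusted p of 0.529 in limma, and neither week passed the threshold (adjusted p = 0.541 and 0.285). The 2 diets lay on 1 slide at week 6 and on different slides at week 30. The miRNA was detected on 12 of 20 arrays, among them 1 of 3 on chow and 2 of 3 on high fat diet at week 6. The high fat array at 4.43 in week 6 did not detect it, and the 3.09 at week 30 is the floor. Chow week 30 was the only group with it detected on every array, so it entered the test through the higher group of that week.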

How the results depend on the processing

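Counts of members called changed as follows. For the step from week 0 to week 6 on chow (4 called), the count was 8 with the percentile over all miRNAs, 0 with no scaling, 1 with normexp, 0 with only miRNAs detected on all arrays (3 members tested), 1 with near-identical arrays averaged, 10 with only the groups compared, 2 within slide 1 (chosen after seeing the data), and 0 to 2 when 1 array was left out. Quantile normalization gave 6, but 5 of these were lower, and no filter gave 3, without miR-1188-3p. For week 6 to 18 on chow (1 called), the count was 0 with the percentile over all miRNAs, no scaling, normexp or only miRNAs detected on all arrays, 3 with no filter and 2 with only the groups compared, and 1 whichever array was left out. For the diet at week 6 (1 called), it was 0 with the percentile over all miRNAs, no scaling, normexp, the floor lower by 1, only miRNAs detected on all arrays, near-identical arrays averaged or only the groups compared, and 0 to 1 when 1 array was left out. It was 3 for the diet at week 30 with only the groups compared, and 3 for high fat week 0 to 6 without the 4 arrays with the fewest detected miRNAs, where 0 were called otherwise. The cause of these changes was not tested, except that the filter leaves fewer members. Medians over the members changed sign with at least 1 scaling in 9 of 10 comparisons, and no called member changed direction. With the replicate number as a block the counts were 4, 1 and 1 and 0 elsewhere, the same as without it. Arrays with the same number did not deviate together in general (median correlation 0.02 over 57 pairs, lowest -0.59, highest 0.74, 24 over 0.1). For arrays with other numbers the median was -0.02 over 114 pairs, 45 of them over 0.1. The numbers were therefore not used to pair arrays. Single pairs did deviate together, and the first arrays of chow week 18, high fat week 18 and high fat week 30 stood apart together, as given above. The slide as a block could not be fitted for the steps from week 6 to 18. Exchanging the diets of the 2 week 18 arrays by their labelled position left 0 called. Signal over background limits what can be said of the 50 members detected on no array.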
